A study of Ovis aries with 14 samples.

Results

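HSP90AA1 and HSP70.1, 2 cytosolic heat shock genes, were followed across every group of a study of fetal sheep given triclosan, an antibacterial compound used in soaps and toothpaste. They were found by gene name among 962 named genes on the array, and were covered by 3 of its 15008 probes, 1 for HSP90AA1 and 2 for HSP70.1. The genes were picked because their signal was already known to be lower with triclosan on these arrays, so their levels and differences are given as a description and carry no test. The name HSP70.1 is that of the array design and matched no current symbol of the gene table, so which copy of the inducible HSP70 genes it denotes is not settled here.

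HSP90AA1 encodes the stress-inducible form of the cytosolic chaperone HSP90, which holds client proteins such as steroid hormone receptors and kinases in a state ready for activation. Inducible HSP70 binds unfolded stretches of protein and passes part of its clients on to HSP90. Transcription of both is driven by heat shock factor 1 when unfolded protein accumulates, and HSP90 is also abundant in unstressed brain tissue.

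The RNA came from the hypothalamus of fetuses at about 130 days of fetal age and was hybridised to single-colour Agilent ovine arrays. In the direct arm, chronically catheterised fetuses themselves received vehicle (n = 4) or triclosan at 250 µg per day (n = 4) intravenously for 2 days. In the indirect arm the ewe received vehicle or triclosan at 100 µg/kg per day (n = 3) for 2 days. Of the 3 deposited maternal vehicle arrays 2 were independent, because replicate 3 equalled 0.6 times replicate 1 plus 0.4 times replicate 2 at all 15744 spots, and it was left out. The doses differ in size and basis between the arms. The labels do not say whether replicates were separate animals, so SDs, SEs and p-values measure only the spread between these arrays, which may be technical.

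The sequences show what each probe reads, and how far the HSP70.1 probes can be counted separately. Each probe is 60 bases long and is printed as the scanner files give it, with capitals in the HSP70.1 pair marking the stretch that both share.
HSP90AA1, A_70_P014626: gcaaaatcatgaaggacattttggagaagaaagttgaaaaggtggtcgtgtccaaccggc
HSP70.1, A_70_P031192: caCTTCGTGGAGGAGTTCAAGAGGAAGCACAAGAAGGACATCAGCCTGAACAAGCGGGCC
HSP70.1, A_70_P031191: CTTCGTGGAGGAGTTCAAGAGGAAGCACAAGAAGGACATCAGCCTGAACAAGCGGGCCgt
The HSP70.1 probes start at bases 53 and 55 of the same expressed sequence tag and share 58 of 60 bases, so they are repeat readings of 1 site and not independent evidence. Their scaled values differed by a median of 0.08 on the log2 scale over the 13 independent arrays and by at most 0.27. The HSP90AA1 probe starts at base 1686 of a partial HSP90 alpha coding sequence. Its GC content was 45%, and that of both HSP70.1 probes was 55%, against a median of 43.3% over all probes of the array.

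A search of all other probes on both strands, for any run of 20 bases in common, found none for HSP90AA1 and 1 for HSP70.1. That probe carries no gene name in the files. In the pair printed next, capitals mark the only base that differs.
HSP70.1, A_70_P031192: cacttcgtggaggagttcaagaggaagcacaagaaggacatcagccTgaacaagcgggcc
No gene name, A_70_P060956: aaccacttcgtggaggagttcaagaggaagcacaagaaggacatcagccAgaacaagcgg
The overlap covers 57 bases with 1 mismatch, T47A, where positions are counted from 1 at the 5′ end of the HSP70.1 probe and the HSP70.1 base is given first. The unnamed probe was designed on a second expressed tag that the files list beside the first for all 3 probes. Probes this alike can bind each other's transcript, and other HSP70 genes with the same stretch could contribute to all 3 signals.

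Levels are given as log2 of the processed signal minus the 75th percentile of the same array, so 0 marks that percentile. All 3 member probes were well above background on all 13 arrays, without saturation or outlier marks. The median processed signal of an array was 236 to 307 with fetal triclosan and 315 to 380 with fetal vehicle. In the indirect arm it was 284 to 376 with triclosan and 351 to 354 with vehicle. The mean difference between 5′ and 3′ probes of 18 transcripts, a sign of RNA integrity, was −1.56 to −1.17 with fetal triclosan and −1.32 to −0.50 with fetal vehicle. In the indirect arm it was −1.17 to −0.97 with triclosan and −1.26 to −0.71 with vehicle. The marker levels that follow are on the linear scale, as multiples of the array's 75th percentile, and are not log2 values. Of 17 listed hypothalamic neuron markers 10 were measured, among them POMC, AGRP, OXT and GHRH. Their summed level ran from 9.5 to 56.1 with fetal triclosan and from 9.19 to 19.8 with fetal vehicle. Under maternal infusion it was 25 to 34.8 with triclosan and 11.2 to 16 with vehicle, without overlap. With so few arrays separation is common, as 19.0% of all probes lay wholly lower with maternal triclosan and 12.7% with fetal triclosan. The share wholly higher, which is the direction of the neuron sum under maternal infusion, was not determined. Nothing is read from that separation. None of the 10 neuron genes passed in the direct comparison, and no probe passed in the indirect comparison. The summed level of 5 endothelial genes was 0.561 to 0.763 with fetal triclosan and 0.812 to 1.16 with fetal vehicle, and 3 of the 5 passed as lower. Under maternal infusion it was 0.84 to 0.963 with triclosan and 0.971 to 1.05 with vehicle, again without overlap. TTR, the choroid plexus marker measured, was at 0.289 to 0.666 with maternal triclosan and 0.926 to 1.42 with maternal vehicle, and its fetal groups overlapped. That of 3 erythroid genes was 11.8 to 23.4 with fetal triclosan and 4.28 to 12.5 with fetal vehicle, and 10.5 to 26.8 against 3.28 to 8.9 under maternal infusion. The pituitary, microglial and astrocyte lists overlapped between triclosan and vehicle under both routes. In the direct comparison 1 of 2 microglial and 1 of 4 astrocyte genes measured passed as lower. Of the 3 erythroid genes, 1 passed as higher. Over all named genes 15.0% passed in either direction. No oligodendrocyte marker was measured under a listed symbol. The part of signal level, RNA integrity and tissue make-up in the results was not tested, and in bulk tissue fewer cells of a type and less RNA per cell cannot be told apart.

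HSP90AA1 was lower in every triclosan array than in every vehicle array, whichever route was used. The processed signals with fetal vehicle were 18275, 17668, 19108 and 20644 for replicates 1 to 4, and with fetal triclosan 8626, 10886, 9736 and 8468. The groups lay far apart, and each was narrow. On the scaled log2 axis the means were 3.39 ± 0.068 (SD, n = 4) with fetal vehicle and 2.59 ± 0.12 (SD, n = 4) with fetal triclosan. The difference was −0.80 (SE 0.13 of the limma fit), which is 1.75-fold lower with triclosan.

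Under maternal infusion the HSP90AA1 signals were 25121 and 23137 with vehicle and 12424, 9291 and 16749 with triclosan. The 2 vehicle arrays were the brightest of all 13, and maternal triclosan replicate 3 stood above its group. The scaled means were 3.81 ± 0.10 (SD, n = 2) and 2.89 ± 0.30 (SD, n = 3). The difference of −0.92 (SE 0.17), or 1.89-fold lower, was close in size to that of the direct arm. Direct minus indirect came to 0.11 (SE 0.21), given without a test like the other values of the members. Without maternal triclosan replicate 3 the indirect value was −1.08.

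In descending order the HSP90AA1 group means were maternal vehicle, fetal vehicle, maternal triclosan and fetal triclosan. Maternal and fetal vehicle arrays did not overlap, with 0.28 between the lowest maternal and the highest fetal array. Fetal vehicle and maternal triclosan were separated by only 0.09, since maternal triclosan replicate 3 lay at 3.22 and the lowest vehicle array at 3.32. The 2 triclosan groups overlapped. The highest triclosan array of either route was thus below the lowest vehicle array of either route, a pattern seen at 1.48% of all probes without missing values.

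HSP70.1 was lower with triclosan under both routes as well, with a larger difference and a wider spread in the direct arm. On probe A_70_P031192 the processed signals with fetal vehicle were 3064, 2875, 3139 and 3623 for replicates 1 to 4. With fetal triclosan they were 1217, 568, 1414 and 960. No triclosan array came near a vehicle array, and replicate 2 was the lowest by a wide margin. The scaled means were 0.81 ± 0.094 (SD, n = 4) and −0.67 ± 0.60 (SD, n = 4), a difference of −1.48 (SE 0.26), or 2.79-fold lower. Without fetal triclosan replicate 2 the difference was −1.19. The array that was lowest for HSP70.1 was the highest of its group for HSP90AA1, with scaled values of −1.54 and 2.72.

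With maternal infusion the same HSP70.1 probe read 3786 and 3999 with vehicle, and 2180, 1685 and 3307 with triclosan. Replicate 3 was again the highest of the maternal triclosan arrays, and at 0.88 on the scaled axis it lay inside the fetal vehicle range of 0.74 to 0.94. It stayed below both maternal vehicle arrays. The scaled means were 1.18 ± 0.038 (SD, n = 2) with vehicle and 0.45 ± 0.38 (SD, n = 3) with triclosan. The difference was −0.72 (SE 0.33), or 1.65-fold lower. Direct minus indirect was −0.76 (SE 0.42) for HSP70.1.

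The order of group means was the same for HSP70.1 as for HSP90AA1, but the overlaps fell elsewhere. Maternal vehicle lay above fetal vehicle without overlap, by 0.21 between the nearest arrays. Fetal vehicle and maternal triclosan overlapped. Fetal triclosan lay below maternal triclosan without overlap, with 0.38 between the nearest arrays and 1.12 between the means. The share of all probes with this separation was not determined, so nothing is read from it. For HSP90AA1 the corresponding difference of means was 0.30.

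**Figure D1:**
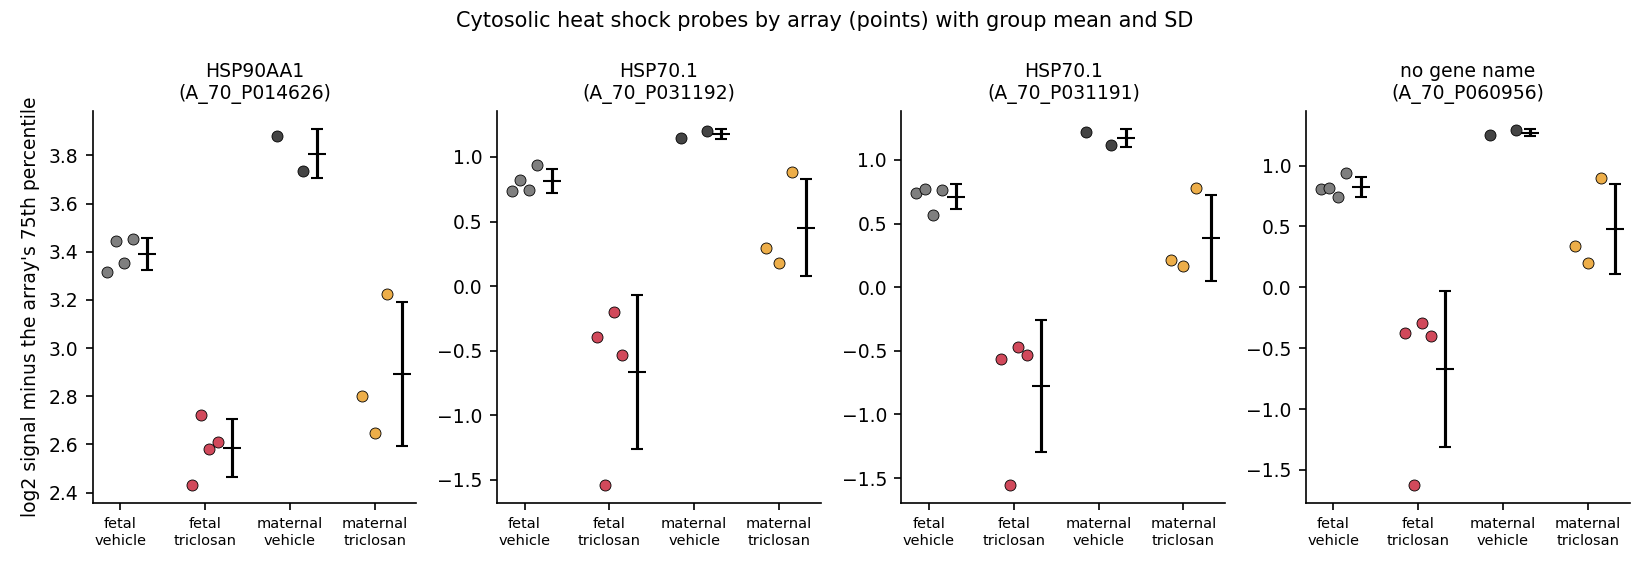
Scaled log2 signal (vertical axis, each array's 75th percentile = 0) of the HSP90AA1 probe, both HSP70.1 probes and the overlapping probe without a gene name, by group. Points are arrays (n = 4, 4, 2 and 3 from left to right) and bars show the group mean and SD. Fetal triclosan replicate 2 is the lowest point at −1.54 to −1.62 in the last 3 panels.

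The second HSP70.1 probe, A_70_P031191, gave a direct difference of −1.49 (SE 0.23) and an indirect difference of −0.78 (SE 0.30). The unnamed probe that differs at 1 base followed the same arrays, with group means of 0.83, −0.67, 1.27 and 0.48 for fetal vehicle, fetal triclosan, maternal vehicle and maternal triclosan. Its direct difference was −1.50 (SE 0.27) and its indirect difference −0.79 (SE 0.35). It departed from either HSP70.1 probe by at most 0.19 on any array.

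All 3 member probes had every fetal triclosan array below every fetal vehicle array, which held for 12.7% of all probes, while 11.3% of probes passed limma's adjusted test as lower in that comparison. All 3 also had every maternal triclosan array below both maternal vehicle arrays, which held for 19.0% of probes, and 5.30% of probes met both conditions. In the vehicle groups, all 3 had both maternal arrays above all 4 fetal arrays, against 9.25% of probes. The maternal minus fetal vehicle difference was 0.42 (SE 0.16) for HSP90AA1 and 0.36 (SE 0.32) for A_70_P031192, where the slide block gave 0.58 and the replicate block 0.56. Because 2 of the 3 probes read 1 site, and because the genes were picked on these values, nothing is read from these counts. The indirect comparison and the vehicle comparison share the maternal vehicle arrays, and the direct and vehicle comparisons share the fetal vehicle arrays.

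Arrays on the same slide gave the same direction. For HSP90AA1 the fetal triclosan minus fetal vehicle value was −0.88 on slide 1, −0.72 on slide 2 and −0.82 on slide 3. The maternal values were −1.08 on slide 1 and −1.09 on slide 2. For A_70_P031192 the fetal values were −1.13, −2.36 and −1.04 on slides 1, 2 and 3, and the maternal values −0.86 and −1.02 on slides 1 and 2. The within-slide values rest on 1 array a side, or on 2 vehicle arrays on slide 3, and maternal triclosan replicate 3 had no maternal vehicle partner on its slide. Fetal triclosan replicate 4 lay alone on slide 5 and was scanned on a day of its own.

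Among 13740 probes tested, the direct differences of HSP70.1 were at the low end. Only 0.917% of probes had a value at or below that of A_70_P031192, whereas 8.84% were at or below that of HSP90AA1. In the indirect arm the order was the other way, with 1.72% at or below HSP90AA1 and 3.52% at or below A_70_P031192. The median of all probes was −0.09 in the direct and 0.01 in the indirect comparison. The members were picked for their lower signal on these arrays, so low ranks follow from the choice and are no test.

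Median direct differences ran from −0.29 in the dimmest decile of probes to 0.24 in the brightest, so the members are also set beside probes of like brightness. HSP90AA1 lay in the brightest decile (94.4th percentile of the mean level), where 8 of 1374 probes, itself included, were as low. A_70_P031192 lay in the eighth decile, with a median of 0.05 and 4 of 1374 probes as low. In the indirect comparison 3 of 1374 probes in the brightest decile were as low as HSP90AA1, and 19 in the eighth decile as low as A_70_P031192. Ranks within a decile are a description too, since the members were picked on these values. The value of HSP90AA1 moved with the scaling in the direct arm, to −0.59 with median scaling and −0.99 with quantile normalisation. In the indirect arm it was −0.88 and −0.98.

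**Figure D2:**
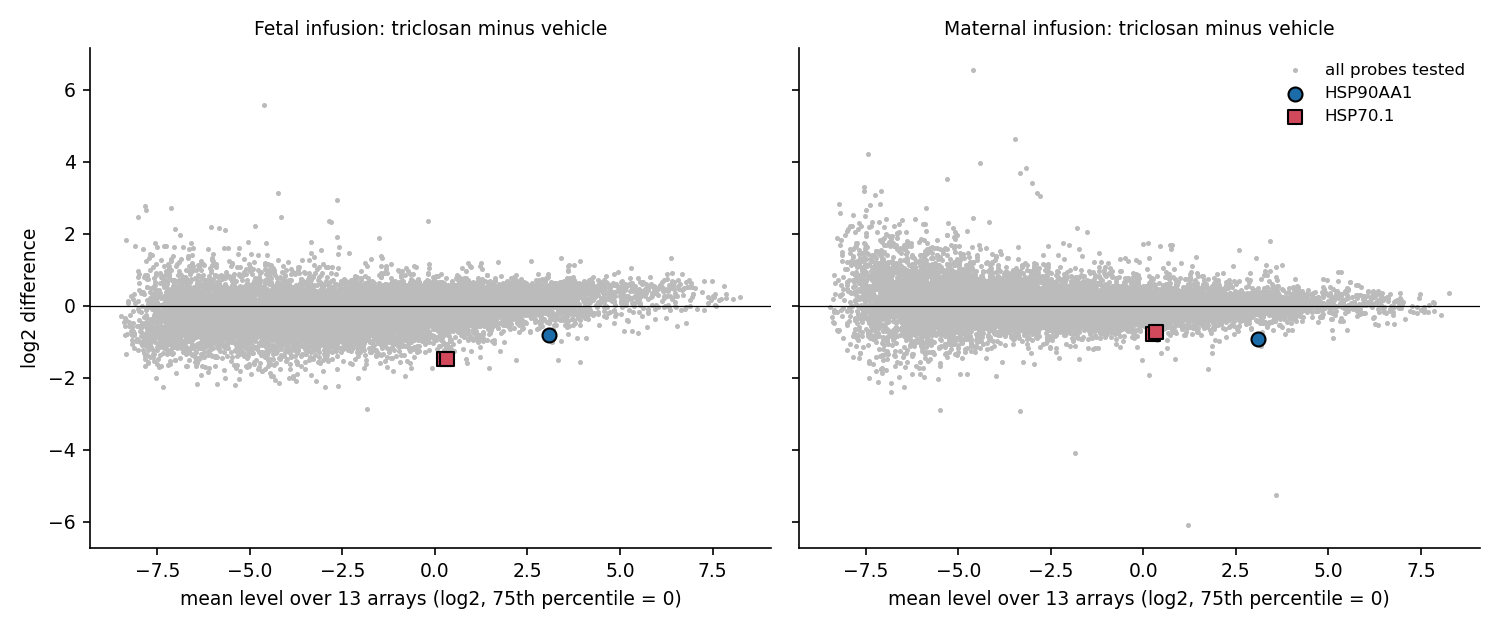
Log2 difference between triclosan and vehicle (vertical axis) against the mean scaled level over 13 arrays (horizontal axis) for all 13740 probes in grey, with HSP90AA1 as a circle and the HSP70.1 probes as squares. On the left (fetal infusion) the members lie at −0.80 and at −1.48 and −1.49. On the right (maternal infusion) they lie at −0.92 and at −0.72 and −0.78.

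The named genes whose pattern was nearest to HSP90AA1 were found by the root mean square (RMS) difference between centred log2 profiles over the 13 arrays, among 900 other named genes. HSP90AA1 itself varied around its mean with an RMS of 0.46, and the median gene was 0.57 away from it. Among the nearest were pgc1, the array's name for a transcriptional coactivator of mitochondrial genes (RMS 0.16), and ACVR1, a receptor for activins and bone morphogenetic proteins (0.16). HSPA5, the main chaperone in the lumen of the endoplasmic reticulum, was at 0.21, and EAAT1, a glial glutamate transporter, at 0.22. The direct differences of these 4 ran from −0.92 for pgc1 to −0.64 for HSPA5. Their indirect differences ran from −0.71 for ACVR1 to −0.48 for HSPA5, and all 4 had a higher mean with maternal than with fetal vehicle, by 0.24 to 0.36. HSP90AA1 and all 4 had their lowest value on fetal triclosan replicate 1. The genes were picked for likeness over these same arrays, so the shared directions and lowest array follow from the choice and are no separate evidence.

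The 5 genes nearest to HSP70.1 were others than those nearest to HSP90AA1. The profiles of the 2 members were 0.47 apart, which ranked HSP70.1 at 237 among the genes nearest to HSP90AA1 and HSP90AA1 at 41 among those nearest to HSP70.1. HSP70.1 varied around its mean with an RMS of 0.77, and the median gene was 0.81 away from it, so HSP90AA1 was nearer than most. Among its nearest genes were FGFR3, which binds fibroblast growth factors (RMS 0.22), and IKKBETA, a kinase of NF-kappa B signalling (0.29). KDR, a receptor for vascular endothelial growth factor, and JUND, a subunit of AP-1, were also at 0.29. The direct differences of these 4 lay between −1.61 for FGFR3 and −1.14 for JUND. Their indirect differences ran from −0.94 for FGFR3 to −0.03 for IKKBETA, against −0.72 for HSP70.1. HSP70.1 and these 4 had their lowest value on fetal triclosan replicate 2. These genes too were picked for likeness over the same arrays, so their shared pattern follows from that choice. FGFR3 is on the astrocyte marker list and KDR on the endothelial list.

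**Figure D3:**
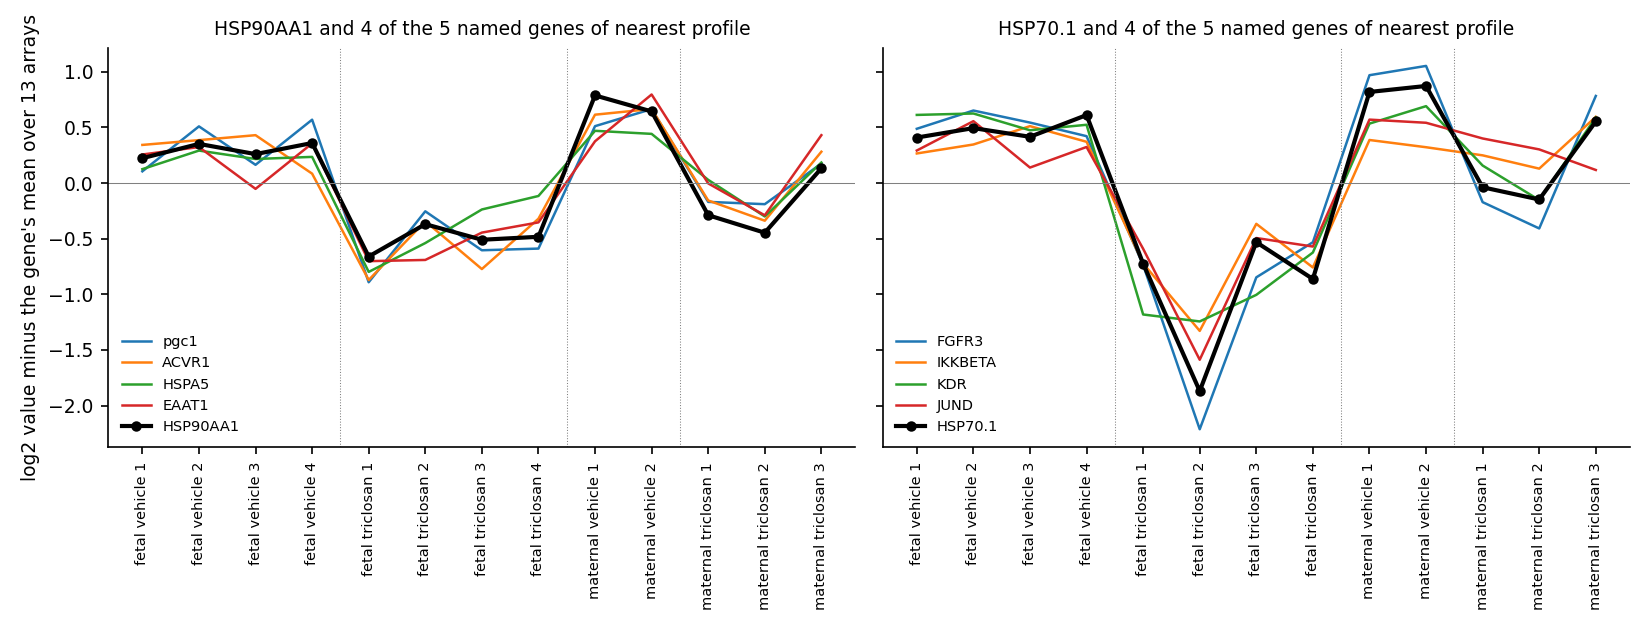
Log2 value of each gene minus its mean over the 13 arrays (vertical axis) by array (horizontal axis, replicates within a group have no order), for HSP90AA1 (left, black) and HSP70.1 (right, black) with 4 of the 5 named genes of smallest RMS difference in colour. Dotted lines part the groups. HSP90AA1 and its neighbours are lower on all fetal triclosan than on all fetal vehicle arrays, and HSP70.1 has its lowest point at fetal triclosan replicate 2. The coloured genes were picked for likeness on these same arrays.

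The rest of the cytosolic chaperone system was thinly covered by named probes. Of 88 genes in 6 lists (HSP90 and HSP70 families, HSP40 co-chaperones, other co-chaperones, small heat shock proteins, chaperonins and heat shock factors), 3 were measured besides the members. In the direct comparison none of the 3 passed limma's test at an adjusted p of 0.05, against 15.0% of 902 named genes in either direction. None of the 3 had an unadjusted direct p under 0.05, against 4553 of all 13740 probes. CRYAB, a small heat shock protein of glia and lens, had a direct value of 0.21 (SE 0.30, adjusted p = 0.665) and an indirect value of −0.61 (SE 0.39). CRYAA, its lens relative, had −0.16 (SE 0.23) and 0.11 (SE 0.30). TCP1, a subunit of the cytosolic chaperonin that folds actin and tubulin, had −0.18 (SE 0.18, adjusted p = 0.511) and −0.55 (SE 0.23, adjusted p = 0.503, unadjusted p = 0.0372), the only one of the 3 with an unadjusted indirect p under 0.05. TCP1 passed in the direct comparison without fetal triclosan replicate 4 (−0.38, adjusted p = 0.0424) and with the slide as a block (−0.39, adjusted p = 0.0413), which sets that array aside. With median scaling the direct values of TCP1 and CRYAA turned to 0.03 and 0.06.

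The chaperone probes outside the lists were picked after their values were seen, and the members for their lower signal. A contrast of their sizes would follow from these choices, so none is drawn. A probe described in the files as the HSP40 protein DnaJ A1 had a direct value of 0.17 (SE 0.13, adjusted p = 0.407) and an indirect value of −0.31 (SE 0.17, adjusted p = 0.565). GRPEL1, the nucleotide exchange factor of mitochondrial HSP70, had −0.19 (SE 0.14, adjusted p = 0.395) and −0.35 (SE 0.18, adjusted p = 0.562) on its brighter probe. The dimmer GRPEL1 probe had −0.20 (SE 0.16, adjusted p = 0.412) and −0.55 (SE 0.20, adjusted p = 0.463, unadjusted p = 0.0196). Whether these genes differ from the members in their response was not tested.

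Of 19 genes on the endoplasmic reticulum list, which also holds the transcription factors XBP1 and ATF4, 4 were measured. In the direct comparison 2 of them fell and 0 rose, and the list median was −0.61 against −0.10 over all named genes. Of all probes, 11.3% passed as lower. HSPA5 fell by 0.64 on the log2 scale (SE 0.16, adjusted p = 0.0178), but lost the call with median scaling (−0.42, adjusted p = 0.0647) and without fetal vehicle replicate 3 (adjusted p = 0.0511). PDIA4, a disulfide isomerase, fell by 0.96 (SE 0.22, adjusted p = 0.0133). XBP1, which switches on genes for protein folding in this compartment, had −0.58 (SE 0.23, adjusted p = 0.100). It passed with the authors' deposited values (−0.69, adjusted p = 0.0444), with the slide as a block (−0.77, adjusted p = 0.0148) and without fetal triclosan replicate 4 (−0.81, adjusted p = 0.0110). ATF4, a transcription factor of the integrated stress response, had −0.13 (SE 0.11), and 0.08 with median scaling. In the indirect comparison none of the 4 passed the adjusted test, nor did any of the 13740 probes, and 3 had an unadjusted p under 0.05, as had 1324 of all 13740 probes. The indirect values were −0.48 for HSPA5, −0.93 for PDIA4 and −0.46 for XBP1, and 0.46 for ATF4. For PDIA4 the maternal vehicle mean lay 0.89 above the fetal vehicle mean. Its scaled values were −1.71 to −1.26 with maternal triclosan, −1.64 to −1.26 with fetal vehicle and −2.91 to −1.85 with fetal triclosan.

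Of 33 listed client proteins of HSP90, 20 were measured, and in the direct comparison 1 rose and 2 fell, with a list median of −0.12. Over all named genes 15.0% passed in either direction and the median was −0.10, so the client count is near the background. NR3C1, the glucocorticoid receptor and a classical client, rose by 0.69 (SE 0.16, adjusted p = 0.0154). Its scaled values were −4.20, −4.45, −4.22 and −4.31 with fetal vehicle and −3.65, −3.50, −3.30 and −3.94 with fetal triclosan. NR3C1 was thus higher on all 4 triclosan arrays, and 935 of all 13740 probes passed as higher in this comparison. HSP90AA1 was picked for its lower signal, and a link between the 2 genes was not tested. KDR fell by 1.57 (SE 0.17, adjusted p = 0.00203), and its other 3 probes had values from −1.95 to −0.74, all past the threshold. With normexp correction the KDR value was −0.95 (adjusted p = 0.00357). ERBB2, a receptor kinase, fell by 1.15 (SE 0.33, adjusted p = 0.0332). Its probe was dim, and 2 of the 4 arrays of fetal triclosan had it well above background. It lost the call in 9 of 21 alternative fits, among them normexp background correction (−0.07, adjusted p = 0.865), the authors' deposited values (−0.39, adjusted p = 0.132) and those without fetal vehicle replicate 1, 3 or 4 (adjusted p = 0.0725 to 0.0830). EGFR, a related kinase, had −0.76 (SE 0.27, adjusted p = 0.0695), and HIF1A, the hypoxia factor, had 0.40 (SE 0.14, adjusted p = 0.0700). EGFR passed in 3 of 21 alternative fits, those of all 14 arrays and without fetal triclosan replicate 2 or 3. Normexp correction brought EGFR to −0.26 (adjusted p = 0.329), and in the authors' deposited values it was at −0.33 (adjusted p = 0.267). HIF1A passed in 5 of 21, those of all 14 arrays, median scaling, quantile normalisation, the authors' deposited values and without fetal triclosan replicate 3. For both genes, the fit of all 14 arrays took maternal vehicle replicate 3, which combines replicates 1 and 2, as a further replicate. IKKBETA is the array's name for a kinase that the client list holds under its newer symbol, IKBKB, so it is not in these counts. Its direct difference was −1.17 (SE 0.18), so the counts leave out a client with a large fall. No client passed in the indirect comparison, where the list median was 0.16 and NR3C1 had 0.46 (SE 0.21, adjusted p = 0.523).

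**Figure D4:**
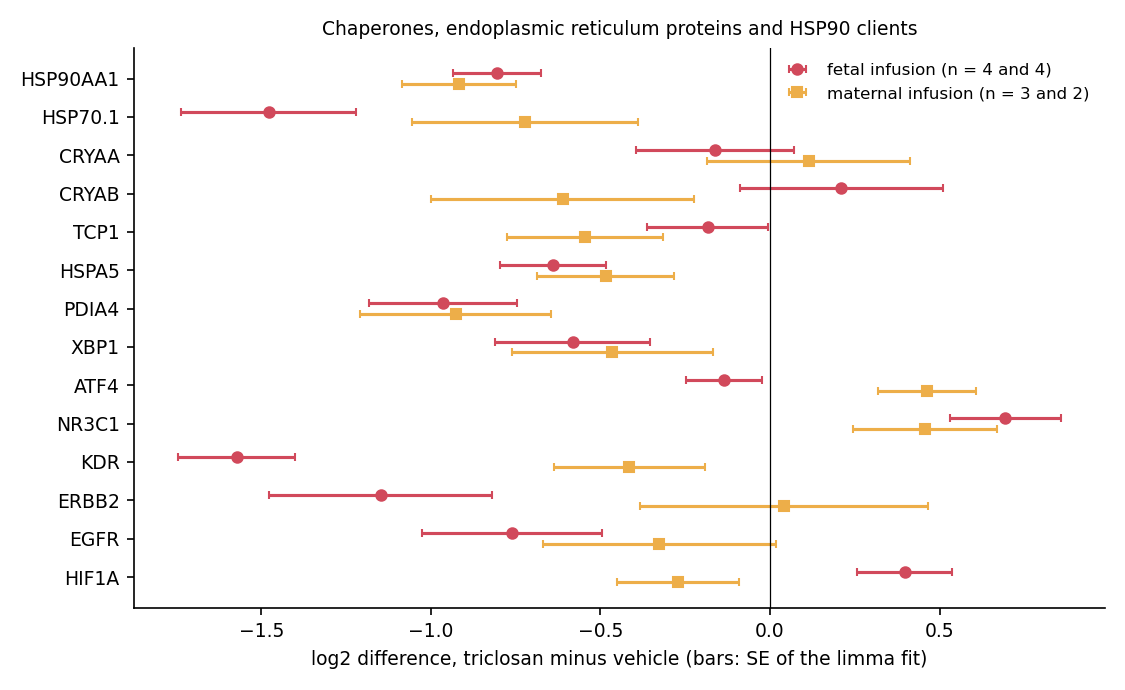
Log2 difference between triclosan and vehicle (horizontal axis, bars are the SE of the limma fit) for both members and the named genes of the chaperone, endoplasmic reticulum and HSP90 client lists. Circles show fetal infusion and squares maternal infusion. HSP90AA1, PDIA4, HSPA5 and XBP1 have values of like size under both routes, while KDR, ERBB2 and HSP70.1 have lower values under fetal infusion. Over the whole table, limma's adjusted test of the difference between routes was passed by 0 of 13740 probes, and 2013 had an unadjusted p under 0.05.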

How the data were processed

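Spot intensity was deposited as written by Agilent Feature Extraction 10.1.1.1, with spatial and multiplicative detrending on, per the file headers. The authors' deposited value table is on a log2 scale, with a scaling not given in the sources used here, and served as an alternative. From the scanner files, log2 of the processed signal minus the array's 75th percentile was taken, spots with outlier marks were dropped, and probes well above background on at least 3 of 13 arrays were kept. This left 13740 of 15008 probes and 250 missing values, none in the member probes. limma 3.58.1 (R 4.3.3) estimated 4 group means from 13 arrays, with 9 residual degrees of freedom and 2.36 from the prior. Its two-sided test was adjusted by Benjamini-Hochberg over all probes. The fit was also run on simulated data with independent noise at each probe, without array or slide effects, and nothing is read from that run. Plots were made with Python 3.11.15, numpy 2.4.6 and matplotlib 3.10.9.

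Names came from the files and a RefSeq gene table (1553 probes with a symbol, 284 probes keeping a name of the file that the table did not match), and the brightest probe stood for a gene. Named were the members, all measured genes of the 6 chaperone lists, up to 5 each of the client and endoplasmic reticulum lists by smallest unadjusted p in the direct comparison, and the 5 nearest profiles to each member, of which 1 each is not reported here. The 2 chaperone probes named as outside the lists were chosen after their values were seen. The members, lists and tests were chosen with earlier results of these data known. Genome positions of the probes were not analysed here. Alternatives changed the scaling, background correction, filter, blocks, arrays and source of values. The number of arrays limits the precision.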

Additional observations from a re-analysis of the deposited data

Results flagged for a closer look

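In groups of 4, an array that stood far from the other 3 by Dixon's criterion at the 95% level was marked, which chance alone does for about 1 group in 20, and 4 of 52 groups of the named genes were marked. HSP70.1 on probe A_70_P031191 was at −1.55 on fetal triclosan replicate 2, against −0.56 to −0.47 on the other 3 arrays. The same probe was at 0.57 on fetal vehicle replicate 3, against 0.74 to 0.77 on the others. A_70_P031192, which reads the same site, was not among those marked. It had 0.75 on fetal vehicle replicate 3, in a group range of 0.74 to 0.94. On fetal triclosan replicate 2 it had −1.54, against −0.53 to −0.20 on the others. JUND was at −2.14 on fetal triclosan replicate 2, against −1.15 to −1.05 on the others. ERBB2 was at −8.27 on that array, against −6.88 to −6.75 on the others, and it was well above background on only 2 of these 4 arrays. JUND was named because its profile follows HSP70.1, so its mark is no separate sign about that array.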

How the results depend on the processing

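The direction of both members held in the direct, indirect and vehicle comparisons under every alternative run. HSP90AA1 in the direct arm moved from −0.80 to −0.59 with median scaling, −0.99 with quantile normalisation and −0.98 with the authors' deposited values. Without 1 array it ran from −0.85 to −0.75 in the direct and from −1.08 to −0.79 in the indirect arm. HSP70.1 ran from −1.63 to −1.19 and from −0.94 to −0.59 without 1 array. The number of probes called in the direct arm was 2490, or 1339 when the maternal arrays were left out of it, and 1223 to 2955 without 1 array (1223 without fetal vehicle replicate 3, 1654 without replicate 1). Of the 2490, 935 were higher and 1555 lower, against 2174 and 946 with median scaling, under which the overall median shifted to 0.13 from −0.09. With normexp correction they were 814 and 936, and with quantile normalisation 749 and 982. The indirect count of 0 became 12 with all 14 arrays and 356 with array weights, and 0 to 2 without 1 array (2 without maternal triclosan replicate 3, 1 without maternal vehicle replicate 2). The fit of all 14 arrays took maternal vehicle replicate 3, which combines replicates 1 and 2, as a further replicate, so its count is not read as a result. The unadjusted indirect count of the main fit was 1324. The count of other chaperone genes called in the direct arm went from 0 to 1 with the slide block and to 0 to 1 without 1 array. With the replicate block, direct values stayed at −0.80 and −1.48, indirect values were −0.97 and −0.88, and 2824 probes were called in the direct arm. The replicate numbers were not used as pairs, since not every correlation of deviations passed 0.1. It was 0.131, 0.118 and 0.264 for fetal pairs 1 to 3, which share a slide, −0.172 for pair 4, which does not, and −0.085 and −0.077 for the maternal pairs. Of the fetal arrays, 2 of 4 vehicle and 3 of 4 triclosan arrays correlated best with their own number. Maternal vehicle rests on 2 arrays, so its spread is poorly known.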

Other observations

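Among the fits, maternal vehicle replicate 3 as deposited entered only the alternative of all 14 arrays. It had scaled values of 3.81 for HSP90AA1 and 1.16 for A_70_P031192, between those of the replicates 1 and 2 that it combines.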
